A study of Homo sapiens with 4 samples.

Results

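The genes described here are long noncoding RNAs that carry small RNAs inside them: 28 small nucleolar RNA host genes, named SNHG and a number, and 64 microRNA host genes, named MIR, letters or digits, and HG. They were taken by symbol from the table of all samples, where they make up 92 of 39519 named genes, and 1 further microRNA host symbol was left out by the rule. The rule used names and no values. A gene was tested where 2 or more libraries reached 1 TPM, which 26 SNHG genes and 17 microRNA host genes did.

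The cells were U2OS, a human line established from an osteosarcoma. Of the libraries, 2 came from cells labelled sh-NC, which received DMSO and serve as controls, and 2 from cells labelled sh-PURB, in which 5 µg/ml doxycycline induced the knockdown of PURB, each at 72 h. PURB is a protein of the PUR family that binds single-stranded DNA and RNA, and the comparison asks which RNAs differ once it is depleted. Doxycycline was given to the sh-PURB cells and not to the sh-NC cells, so effects of PURB loss, of the hairpin and of the drug cannot be told apart. The sources used here give neither the hairpins' sequences nor whether a line was 1 clone.

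A small nucleolar RNA (snoRNA) guides chemical modification or cleavage of ribosomal RNA. Box C/D snoRNAs guide 2′-O-methylation and box H/ACA snoRNAs guide pseudouridylation. Most are cut from the introns of a host transcript, and the spliced host is often degraded by nonsense-mediated decay. Many hosts start with a 5′ terminal oligopyrimidine (TOP) tract, the signal shared with ribosomal protein messenger RNAs. MicroRNAs are cut from hairpins in a host transcript by DROSHA and then DICER1, and bases 2 to 8 of the mature strand, the seed, pair with target messenger RNAs.

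The results turn on a few microRNA hosts, so the mature strands those hosts carry are shown first, from RefSeq on GRCh38.p14. Capitals mark the seed. The table held 96 of the 101 microRNA genes that lie inside the microRNA host and SNHG genes. MIR6516, inside SNHG20, is counted among the 101. MIR100HG and MIR99AHG, on different chromosomes, carry clusters whose leading strands share their seeds in pairs: ACCCGUA in miR-100 and miR-99a, GAGGUAG in let-7a and let-7c, and CCCUGAG in the miR-125b that both carry.
hsa-miR-100-5p, from MIR100HG (chr11:122152275-122152296, minus strand): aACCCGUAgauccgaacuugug
hsa-miR-99a-5p, from MIR99AHG (chr21:16539101-16539122, plus strand): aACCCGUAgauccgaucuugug
hsa-let-7a-5p, from MIR100HG (chr11:122146568-122146589, minus strand): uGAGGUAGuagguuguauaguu
hsa-let-7c-5p, from MIR99AHG (chr21:16539838-16539859, plus strand): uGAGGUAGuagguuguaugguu
hsa-miR-125b-5p, from MIR100HG (chr11:122099809-122099830, minus strand) and MIR99AHG (chr21:16590253-16590274, plus strand): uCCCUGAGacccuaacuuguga

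MIR222HG carries miR-221 and miR-222, whose 3p strands share the seed GCUACAU. MIR3936HG, MIR4307HG, MIR663AHG and MIR22HG each carry 1 microRNA, and their seeds differ from one another.
hsa-miR-221-3p, from MIR222HG (chrX:45746180-45746202, minus strand): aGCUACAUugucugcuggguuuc
hsa-miR-222-3p, from MIR222HG (chrX:45747036-45747056, minus strand): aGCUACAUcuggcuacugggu
hsa-miR-3936, from MIR3936HG (chr5:132365513-132365534, minus strand): uAAGGGGUguauggcagaugca
hsa-miR-4307, from MIR4307HG (chr14:26908697-26908715, plus strand): aAUGUUUUuuccuguuucc
hsa-miR-663a, from MIR663AHG (chr20:26208243-26208264, minus strand): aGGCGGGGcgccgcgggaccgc
hsa-miR-22-3p, from MIR22HG (chr17:1713914-1713935, minus strand): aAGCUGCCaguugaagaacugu

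For the SNHG genes the start of the transcript is shown, since the TOP tract lies there. A TOP tract was counted where a C, within 5 bases of the annotated start on the sense strand, was followed by at least 4 pyrimidines. RefSeq's table of promoters on GRCh38.p14 (250 bases before to 50 after a gene's start) held 72 of the 92 genes. Among tested genes it held 22 SNHG genes, of which 11 (50%) had the tract, and 15 microRNA hosts, of which 7 (46.7%) had it. The tract was in 23.1% of the promoters of all tested genes and in 21.1% of all 27305 promoters. The windows below are 40 bases long with the annotated start at base 16, and capitals mark the tract. The first 4 genes have one, and SNHG26 and SNHG29 have none by this definition.
SNHG8 (chr4:118278747-118278786, plus strand): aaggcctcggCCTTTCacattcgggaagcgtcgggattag
SNHG16 (chr17:76557749-76557788, plus strand): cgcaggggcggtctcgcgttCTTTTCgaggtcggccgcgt
SNHG7 (chr9:136728160-136728199, minus strand): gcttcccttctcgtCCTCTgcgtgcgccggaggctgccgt
SNHG18 (chr5:9546185-9546224, plus strand): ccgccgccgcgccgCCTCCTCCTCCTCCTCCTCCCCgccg
SNHG26 (chr7:22854225-22854264, plus strand): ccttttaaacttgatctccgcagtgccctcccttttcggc
SNHG29 (chr17:16438972-16439011, plus strand): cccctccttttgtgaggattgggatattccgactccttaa

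A pair of other motifs was searched on both strands of the same promoters. CACGTG, the E-box, was in 2 of the 22 tested SNHG genes, in 0 of the 15 tested microRNA hosts and in 9.92% of the promoters of all tested genes. TGATGNAA, the core of the element bound by ATF4, was in 0 and 1 of them and in 1.71% of the promoters of all tested genes. These matches describe letters in the windows only.

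Values are TPM, a share of all transcripts scaled by length. Since TPM holds no read number, the depth behind a value is unknown. The columns summed to 977570 to 981061, and 22822 to 24156 genes were above 0. Structured RNA genes were RPPH1, RMRP, RN7SK and the 7SL genes RN7SL1 and RN7SL2. They held 62.2% and 59.4% of the sh-NC libraries against 65.2% and 63.2% of the sh-PURB libraries. Both sh-PURB shares were the higher, and the part of this in the TPM of other genes was not tested. PURB stood at 5.29 and 6.55 TPM in the controls against 2.46 and 2.69 in sh-PURB, 43.5% of control. With 2 libraries against 2 the exact two-sided permutation p was 0.333, the smallest this design allows, and the limma adjusted p was 0.102. Of the bone and mesenchymal markers, VIM, SPARC, COL1A1 and RUNX2 were present, and 4 of 8 (SP7, ALPL, BGLAP and COL1A2) were under 1 TPM in every library. Their summed level was 611 to 621 TPM in the controls against 530 to 606 in sh-PURB. The epithelial markers summed to 188 to 216 and 191 to 203 TPM, with CDH1 and KRT19 under 1 everywhere. Blood markers summed to no more than 1.88 TPM, and all 3 endothelial markers were under 1. The part of these shifts in the results below was not tested, and in bulk RNA fewer cells of a type and less RNA per cell cannot be told apart. The labels do not say that libraries came from separate cultures, so p-values reflect just how these libraries vary, and that variation may be technical.

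The SNHG genes as a class were much the more abundant. Their median TPM was 17.0 to 19.7 in a library, against 1.81 to 2.33 for the tested microRNA hosts. On the log2(TPM + 1) scale the mean level of the tested SNHG genes exceeded that of the tested microRNA hosts by 1.96 and 2.05 in sh-NC and by 2.09 and 2.09 in sh-PURB. The sh-PURB gaps were the wider, but the nearest libraries of the groups lay closer together than the sh-NC libraries did. No test was made, since genes of a class are not replicates.

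Summed TPM gave another picture, because a single gene dominates the microRNA hosts. The SNHG genes summed to 1152 and 1297 TPM in the controls against 1261 and 1382 in sh-PURB, and the groups overlapped. The microRNA hosts summed to 1463 and 1937 TPM in the controls against 2662 and 3184 in sh-PURB. MIR663AHG made up 94.7% to 98.0% of that sum. Without it the order turned, and the other microRNA hosts summed to 77.3 and 86.3 TPM in the controls against 59.0 and 62.7 in sh-PURB. MIR100HG and MIR222HG held 49.1% and 51.6% of that remainder in sh-NC, and 35.1% and 24.2% in sh-PURB.

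No SNHG gene and no microRNA host gene was called in the fit over all genes, where a call is a limma adjusted p under 0.05 and 0.287% of 14269 tested genes were called (12 higher, 29 lower). At an unadjusted limma p under 0.05, which 15.3% of all tested genes reached, 3 of 26 SNHG genes stood higher in sh-PURB and 0 lower, and 3 of 17 microRNA hosts stood higher and 3 lower. Both sh-PURB libraries were above both sh-NC libraries for 9 SNHG genes and 5 microRNA hosts (18.6% of all tested genes). Both were below for 2 SNHG genes and 5 microRNA hosts (29.3% of all tested genes). Among SNHG genes the higher side was thus the more frequent, and among all tested genes the lower side was.

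Of the 17 tested microRNA hosts, 2 (MIR4307HG and MIR548XHG) passed the filter only through sh-PURB and so had to differ, and they enter the counts given here. No SNHG gene passed through 1 group alone.

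The classes differed in the size of the differences. The median difference, sh-PURB minus sh-NC in log2(TPM + 1), was 0.12 for SNHG genes, 0.01 for microRNA hosts and -0.06 for all tested genes. SNHG genes ranged from -0.59 to 0.65, and 2 of 26 (7.69%) lay beyond 0.5 in either direction. MicroRNA hosts ranged from -1.35 to 1.40, and 6 of 17 (35.3%) lay beyond 0.5, against 16.2% of all tested genes. The difference exceeded the gap between replicates in both groups for 8 of 26 SNHG genes, 8 of 17 microRNA hosts and 35.8% of all tested genes. The microRNA hosts had a median mean level of 1.96 TPM and larger gaps between replicates (a median of 0.27 in sh-NC and 0.25 in sh-PURB) than the SNHG genes (0.21 and 0.13), whose median mean level was 18.9 TPM. The part of the level in these sizes was not tested.

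**Figure D1:**
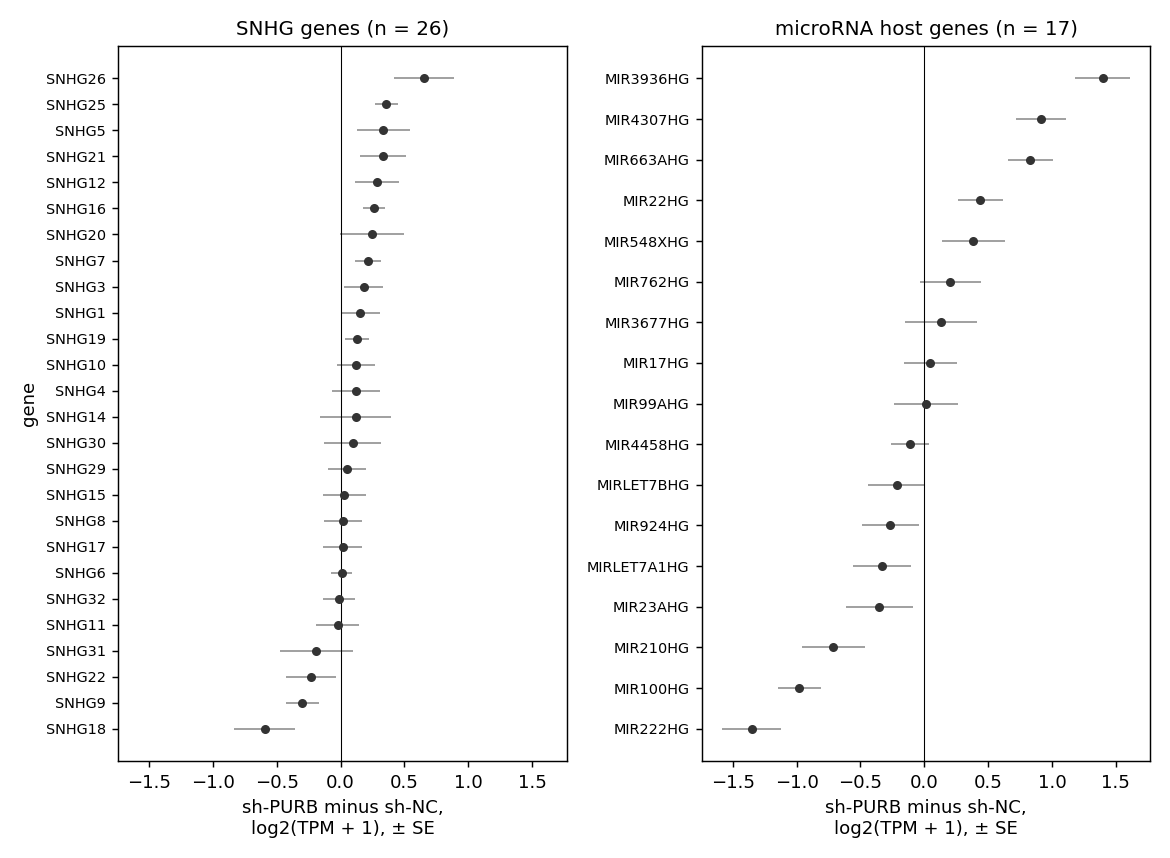
Difference between groups, sh-PURB minus sh-NC on the log2(TPM + 1) scale, for the 26 tested SNHG genes (left) and the 17 tested microRNA host genes (right), on a shared horizontal axis; points are limma estimates and bars ± 1 standard error (2 libraries a group). SNHG genes lie between -0.59 and 0.65, and microRNA hosts between -1.35 and 1.40.

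The 6 most abundant SNHG genes made up 69.6% to 71.4% of the class in a library. SNHG29, on chr17:16438822-16478678 (GRCh38, as all positions here) and host of SNORD49A, SNORD49B and SNORD65, stood at 275 and 307 TPM in the controls against 265 and 343 in sh-PURB, so the groups overlapped. Its ratio of means was 1.04 and its difference 0.05 ± 0.15 (SE; limma adjusted p = 0.908). SNHG8, on chr4:118278709-118279823 and host of SNORA24, stood at 143 and 184 TPM against 156 and 174, also overlapping (ratio 1.01). SNHG6, host of SNORD87, was the steadiest of the abundant ones, at 116 and 116 TPM in the controls against 118 and 115 in sh-PURB.

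SNHG3, on chr1:28505980-28510892, carries SNORA73A and SNORA73B, the H/ACA snoRNAs known as U17 that act in ribosomal RNA cleavage. It stood at 106 and 133 TPM in the controls against 123 and 147 in sh-PURB. The groups overlapped, with a ratio of 1.13 and a difference of 0.18 ± 0.16 (SE; limma adjusted p = 0.648). RCC1, which overlaps SNHG3 on the same strand, had a ratio of 1.15. Of the stretches of 31 bases in SNHG3 transcripts, 12.35% were also in other genes, RCC1 among them. The reads of SNHG3 and RCC1 thus cannot be fully separated.

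**Figure D2:**
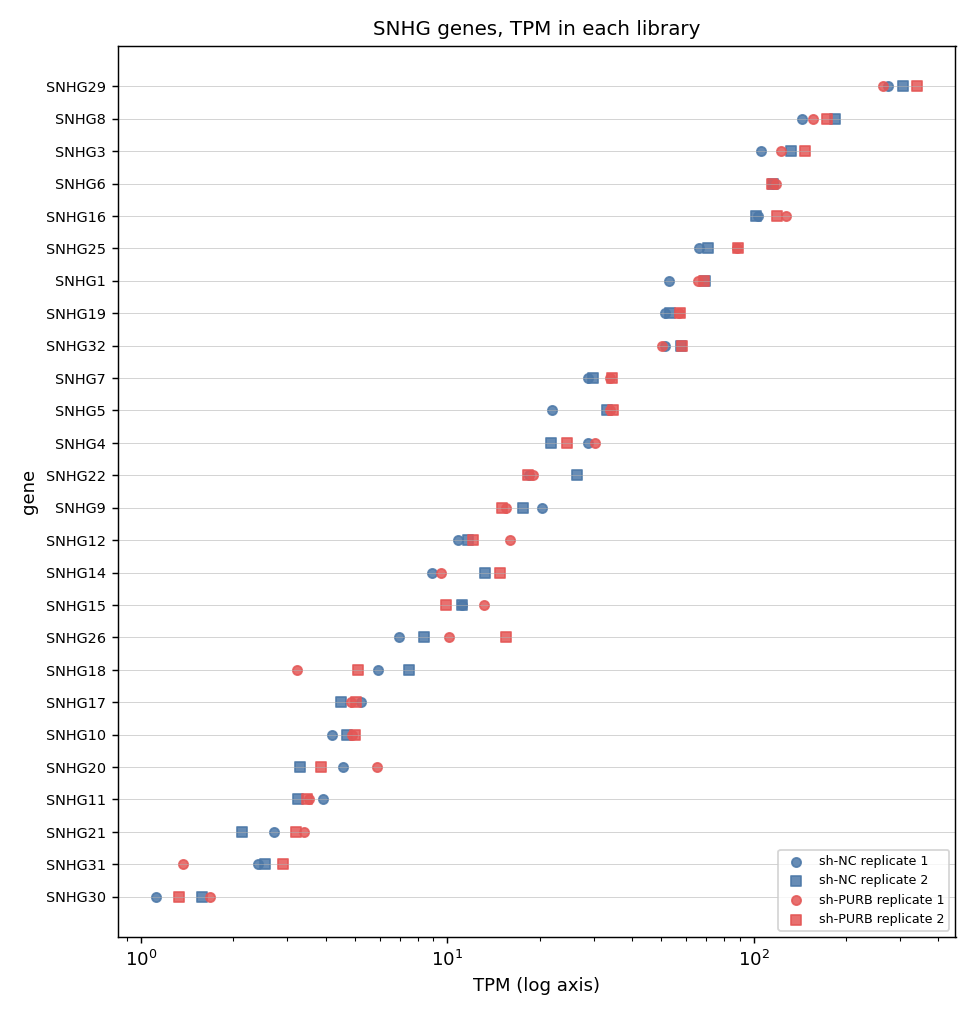
TPM (log axis) of the 26 tested SNHG genes in each of the 4 libraries, ordered by mean level; blue is sh-NC, red is sh-PURB, circles are replicate 1 and squares replicate 2. The top gene, SNHG29, spans 265 to 343 TPM, and in 15 of the 26 genes red and blue points overlap.

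SNHG16 and SNHG25 were abundant and also separated by group. SNHG16, on chr17:76557766-76565348 and host of SNORD1A, SNORD1B and SNORD1C, stood at 103 and 102 TPM in the controls against 127 and 120 in sh-PURB. Both sh-PURB libraries were the higher, and the replicates of a group lay close together, with a ratio of 1.20. The difference was 0.26 ± 0.089 (SE), with a limma unadjusted p of 0.0323 and adjusted p of 0.274, so it was not called. SNHG25, on chr17:64145970-64146476 and host of SNORD104 and SNORA50C, stood at 66.5 and 71.1 TPM in the controls against 88.0 and 89.0 in sh-PURB. Again both sh-PURB libraries were above both controls, with a ratio of 1.29. Its limma adjusted p of 0.182 was the smallest among SNHG genes, for a difference of 0.36 ± 0.093 (SE).

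The widest differences among SNHG genes were in less abundant ones. SNHG26, on chr7:22854178-22861579 and host of SNORD93, stood at 6.93 and 8.41 TPM in the controls against 10.1 and 15.6 in sh-PURB. All sh-PURB values were the higher, but the sh-PURB libraries themselves were far apart (mean 12.8 ± 3.86 TPM, SD, n = 2). The ratio was 1.67 and the difference 0.65 ± 0.23 (SE; limma adjusted p = 0.299), and without sh-PURB replicate 2 it was 0.36. SNHG18, on chr5:9546200-9550609 and host of SNORD123, ran the other way, at 5.93 and 7.49 TPM in the controls against 3.24 and 5.11 in sh-PURB. The ratio was 0.622 and the difference -0.59 ± 0.24 (SE; limma adjusted p = 0.341), and without sh-PURB replicate 1 it was -0.33.

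SNHG9 and SNHG7 had small differences, and the replicates of SNHG7 lay close together. SNHG9, on chr16:1964959-1965509 and host of SNORA78, stood at 20.4 and 17.7 TPM in the controls against 15.5 and 15 in sh-PURB, a ratio of 0.801 (limma adjusted p = 0.363). SNHG7, on chr9:136721366-136728184 and host of SNORA17A and SNORA17B, stood at 28.8 and 29.96 TPM in the controls against 33.9 and 34.6 in sh-PURB, a ratio of 1.16 (limma adjusted p = 0.403). In both genes the groups did not overlap. SNHG7 lies opposite DIPK1B, which had a ratio of 0.910, and 35.2% of its 31-base stretches are shared with other genes. With an unknown strand setting the reads of the pair cannot be fully separated.

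Of the 26 tested SNHG genes, 20 had a difference above 0 and 6 below, where all tested genes divided into 5935 above and 8334 below. SNHG11 and SNHG32 were among the 6 and passed above 0 when the libraries were rescaled by median ratio, or over protein-coding genes and long noncoding RNAs only. The direction held in every setting tried, leaving out each library included, for 12 of 26. The remaining SNHG27 and SNHG28 were below the filter, at no more than 0.458 and 0.194 TPM.

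MIR663AHG, on chr20:26186920-26251526 beside the centromere, was the most abundant gene of either class. It stood at 1386 and 1851 TPM in the controls against 2603 and 3121 in sh-PURB. The groups did not overlap, and the ratio was 1.77. The difference was 0.83 ± 0.17 (SE), with a limma unadjusted p of 0.00506 and adjusted p of 0.130. Of the stretches of 31 bases in its transcripts, 8.18% were also in transcripts of 14 other genes, so some of its reads may be assigned elsewhere.

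MIR3936HG had the highest ratio among tested microRNA hosts and the smallest limma p. It lies on chr5:132311285-132369916, minus strand, and stood at 1.51 and 1.71 TPM in the controls against 4.90 and 7.02 in sh-PURB. All sh-PURB values were far above the controls, a ratio of 3.69. The difference was 1.40 ± 0.21 (SE; limma unadjusted p = 0.00135, adjusted p = 0.0831). On the opposite strand lie SLC22A4 and SLC22A5, genes of organic cation and carnitine transporters. SLC22A5 stood at 1.22 and 1.74 TPM in the controls against 3.09 and 3.41 in sh-PURB (ratio 2.2, limma adjusted p = 0.181), and SLC22A4 stayed under 1 TPM in all libraries. MIR3936HG shares 13.0% of its 31-base stretches with other genes, those 2 among them, and no source used here gives the strand setting, so its reads and theirs cannot be fully separated.

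MIR4307HG, on chr14:26873133-26914743, was low and separated by group. It stood at 0.922 and 0.764 TPM in the controls against 2.33 and 2.61 in sh-PURB, a ratio of 2.93. The difference was 0.91 ± 0.20 (SE; limma unadjusted p = 0.00598, adjusted p = 0.139), which at this level understates the ratio. Both controls were under 1 TPM, so it was tested only because both sh-PURB libraries passed the filter, and its p supports nothing.

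MIR22HG, on chr17:1711493-1717174, gives rise to miR-22. It stood at 2.72 and 2.33 TPM in the controls against 3.52 and 4.05 in sh-PURB. The sh-PURB values were the higher, with a ratio of 1.5 and a difference of 0.44 ± 0.17 (SE; limma adjusted p = 0.336).

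MIR100HG, on chr11:122028327-122556721, lay lower in sh-PURB. It stood at 21.3 and 25.6 TPM in the controls against 12.7 and 10.2 in sh-PURB. The sh-PURB values were under both controls, a ratio of 0.488. The difference was -0.98 ± 0.17 (SE), with a limma unadjusted p of 0.00218 and adjusted p of 0.0945.

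MIR222HG, on chrX:45745211-45770274, had the most negative difference of all tested members. It stood at 16.7 and 18.9 TPM in the controls against 8.04 and 5.00 in sh-PURB. All sh-PURB values were under the controls, a ratio of 0.366. The difference was -1.35 ± 0.23 (SE; limma unadjusted p = 0.00215, adjusted p = 0.0943). Its transcripts shared no stretch of 31 bases with another gene.

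MIR210HG, on chr11:565660-568457, carries miR-210, a microRNA induced in hypoxia. It stood at 1.90 and 2.97 TPM in the controls against 0.904 and 1.25 in sh-PURB. The groups did not overlap, with a ratio of 0.443 and a difference of -0.71 ± 0.25 (SE; limma adjusted p = 0.282). MIR4458HG stood at 6.32 and 5.44 TPM in the controls against 5.45 and 5.27 in sh-PURB, where the groups overlapped (ratio 0.912).

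**Figure D3:**
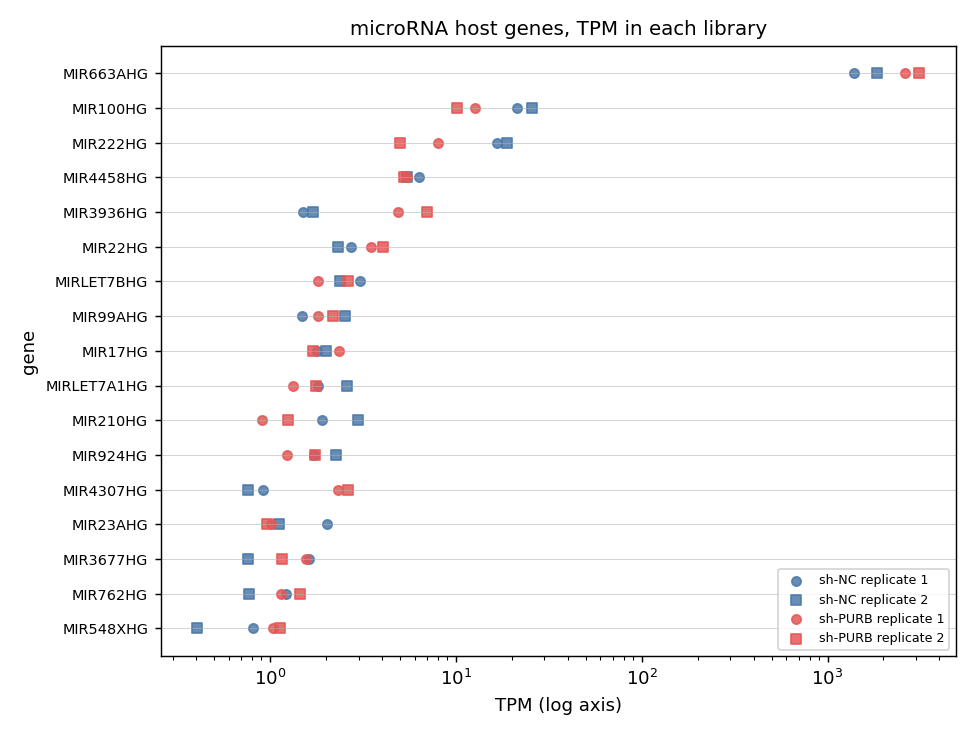
TPM (log axis) of the 17 tested microRNA host genes in each of the 4 libraries, ordered by mean level; blue is sh-NC, red is sh-PURB, circles are replicate 1 and squares replicate 2. MIR663AHG and MIR3936HG have both red points to the right of the blue ones, MIR100HG and MIR222HG have them to the left, and MIR4458HG has them overlapping.

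Calls on the microRNA hosts differed between fits. In a fit of protein-coding genes and long noncoding RNAs alone, rescaled to a common sum, limma adjusted p was 0.0135 for MIR3936HG, 0.0171 for MIR663AHG, 0.0224 for MIR222HG, 0.0280 for MIR100HG and 0.0433 for MIR4307HG, so 5 of 17 were called. MIR4307HG is among them although it passed the filter through sh-PURB alone. That fit called 407 of 12754 genes in all, and still 0 SNHG genes. It changed both the genes tested and the scaling, and its prior degrees of freedom were 5.47 against 2.92.

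MIR100HG and MIR99AHG carry microRNAs of the same seeds, and MIR99AHG was named for that and not by the rule for named genes. MIR99AHG stood at 1.48 and 2.55 TPM in the controls against 1.81 and 2.2 in sh-PURB, overlapping, with a ratio of 0.993. MIR100HG was 14.4 and 10.1 times MIR99AHG in sh-NC and 7.02 and 4.65 times in sh-PURB. The groups did not overlap, and the exact two-sided permutation p was 0.333, the smallest possible with 2 libraries against 2.

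The remaining tested microRNA hosts were low, between 0.404 and 3.05 TPM. MIR17HG, host of the polycistron that begins with miR-17, had a ratio of 1.06, and MIRLET7BHG one of 0.815, both overlapping. MIRLET7A1HG (0.698) and MIR23AHG (0.626) were lower in both sh-PURB libraries, and MIR548XHG (1.78) higher in both. Of the stretches of 31 bases in MIRLET7A1HG, 78.4% were in another gene's transcripts. MIR762HG, MIR924HG and MIR3677HG overlapped. In all, 14 of the 17 kept their direction in every setting tried, and MIR17HG, MIR99AHG and MIR3677HG did not.

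A further 47 microRNA hosts were below the filter. MIR200CHG, MIR217HG, MIR223HG, MIR3150BHG, MIR3659HG, MIR381HG, MIR503HG and MIR548A1HG were listed at 0 in every library. Another 8 reached 0.00598 to 0.0666 TPM in their highest library: MIR3663HG, MIR3976HG, MIR4290HG, MIR4422HG, MIR4432HG, MIR583HG, MIR670HG and MIR7515HG. The next 17, with highest values of 0.101 to 0.499 TPM, were MIR122HG, MIR133A1HG, MIR137HG, MIR155HG, MIR202HG, MIR205HG, MIR29B2CHG, MIR302CHG, MIR3142HG, MIR3945HG, MIR4300HG, MIR4500HG, MIR4713HG, MIR497HG, MIR5689HG, MIR600HG and MIRLET7IHG. The last 14 reached 0.502 to 2.47 TPM: MIR181A1HG, MIR181A2HG, MIR193BHG, MIR2052HG, MIR2117HG, MIR31HG, MIR325HG, MIR3667HG, MIR3681HG, MIR378D2HG, MIR4453HG, MIR4527HG, MIR4733HG and MIR646HG. Among the 47, both sh-PURB libraries were above both controls for 2 and below for 10, beside 18.6% and 29.3% of the tested genes, which are more abundant.

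The hosts were then set beside the small RNA genes annotated inside them on the same strand. Of 129 such genes in 26 SNHG genes, 54 were tested and 53 were listed at 0 in every library. Of 100 microRNA genes in 61 microRNA hosts, 18 were tested and 76 were at 0 in every library. These genes are short, several share sequence with their host, and 14 of the 18 microRNA genes were at 0 in at least 1 library, so single values are uncertain.

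SNHG14, on chr15:24978583-25419462, is the long imprinted transcript that carries the SNORD116 and SNORD115 clusters. It stood at 8.90 and 13.3 TPM in the controls against 9.53 and 14.8 in sh-PURB, overlapping. Of its 25 tested snoRNA genes, 18 had a difference above 0. SNORD116-29 had 0 TPM listed for both controls and 8.36 and 13.7 TPM in sh-PURB, and SNORD116-14 was at 0 and 0 against 6.08 and 4.72. The limma adjusted p was 0.0464 for each. Both passed the filter only through sh-PURB, the group where they are high, so they had to differ and these p-values support nothing. Near-identical copies of SNORD116 can trade reads: SNORD116-15 has the same sh-PURB values as SNORD116-14, but 3.07 and 7.73 TPM in the controls, a difference of 0.09. Of the 25 genes, 7 had a difference below 0. SNORD116-17 and SNORD116-19 are among these 7 and were tested only through sh-NC, so they had to be lower. SNORD115-45, at 0 and 0 against 4.83 and 2.33 TPM (limma adjusted p = 0.0831), was tested only through sh-PURB. The counts above and below 0 include these genes, SNORD116-14 and SNORD116-29. With a pseudocount of 0.1, with no filter or without the intensity trend, neither SNORD116-14 nor SNORD116-29 was called.

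In the other SNHG genes 29 small RNA genes were tested and 0 were called by limma, while 6 stood higher and 6 stood lower where the unadjusted p was under 0.05. That threshold was reached by 15.3% of all tested genes and 29.4% of tested snoRNA and scaRNA genes. The 9 box C/D genes had a median difference of 0.22 and shared their host's sign in 7. The 18 box H/ACA genes had a median of -0.50, with 13 below 0, and shared their host's sign in 5. Both sh-PURB libraries were below both controls for 9 of those 18, for 60 of 245 tested snoRNA and scaRNA genes and for 29.3% of all tested genes. Over those 245 genes, 118 differences were above 0 and 127 below, with a median of -0.02. SNORA16A and SNORA71B passed the filter only through sh-PURB, and SNORA71E only through sh-NC. These H/ACA genes had to differ, and they enter the counts given here. The H/ACA genes are not independent, since several sit in 1 host and 100% of the 31-base stretches of some, such as SNORA73A, SNORA24 and SNORA61, are also in host transcripts. Several hosts of H/ACA genes had differences near 0: 0.02 for SNHG17, -0.02 for SNHG11, 0.02 for SNHG8 and 0.03 for SNHG15. So had SNHG32 (-0.01), host of a C/D gene. Each of these hosts changed direction in at least 1 other setting, so sharing their sign or not means little.

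Some pairs, chosen after their values were seen, show both patterns. SNORD104, in SNHG25, stood at 106 and 112 TPM in the controls against 161 and 178 in sh-PURB, a ratio of 1.56 (limma adjusted p = 0.0831), the same side as its host. SNORA24, in SNHG8, stood at 16.5 and 21.4 TPM in the controls against 9.03 and 9.73 in sh-PURB, a ratio of 0.495 (limma adjusted p = 0.0985), where its host overlapped. SNORA73A stood at 3058 and 3565 TPM in the controls against 1824 and 2403 in sh-PURB, a ratio of 0.638 (limma adjusted p = 0.170), while its host SNHG3 had a ratio of 1.13. SNORA73B, from the same host, had a ratio of 0.662. No test was made of the difference between a small RNA and its host.

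The microRNA genes lay on both sides. Among the 18 tested, 12 had a difference above 0 and 6 below, and 8 of the 14 with a tested host had the host's sign. All 322 tested microRNA genes also leaned upward, with 190 above 0, 132 below and a median of 0.26. MIR663A stood at 2948 and 3260 TPM in the controls against 6577 and 8056 in sh-PURB, a ratio of 2.36 and a difference of 1.23 ± 0.13 (SE; limma adjusted p = 0.0524). Its host was on the same side, and 74.6% of its 31-base stretches are in the host's transcripts. MIRLET7C, in MIR99AHG, was listed at 0 in the controls and had 3.35 and 4.61 TPM in sh-PURB, with a limma adjusted p of 0.0517. MIR193B stood at 3.03 and 2.28 TPM in sh-NC and was listed at 0 in both sh-PURB libraries (limma adjusted p = 0.0615), and its host MIR193BHG was below the filter. MIRLET7C, MIR100 and MIR365A passed the filter only through sh-PURB, and MIR193B only through sh-NC. They had to differ, so their p-values support nothing, and they enter the counts over the 18 genes.

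The microRNA genes named next, inside the hosts that differed most, were also chosen after their values were seen. MIRLET7A2, in MIR100HG, stood at 27.5 and 23.1 TPM in the controls against 10.1 and 14.7 in sh-PURB, a ratio of 0.492 beside the host's 0.488. MIR100, in the same host, was listed at 0 in the controls and had 3.03 and 11.6 TPM in sh-PURB. It passed the filter through sh-PURB alone, so its side, opposite to its host's, was fixed in advance. MIR3936 stood at 2.42 and 11.5 TPM in the controls against 19.3 and 25.6 in sh-PURB, with both sh-PURB libraries above, as in its host. MIR221 stood at 2.42 and 11.5 TPM in the controls against 1.13 and 0 in sh-PURB. Its sh-NC values are the same as those of MIR3936, in both libraries. MIR222, which lies with MIR221 in MIR222HG, overlapped, at 2.42 and 0 TPM in the controls against 2.27 and 0 in sh-PURB. MIR125B1, in MIR100HG, also overlapped, at 0 and 7.55 TPM in the controls against 1.63 and 8.60 in sh-PURB.

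**Figure D4:**
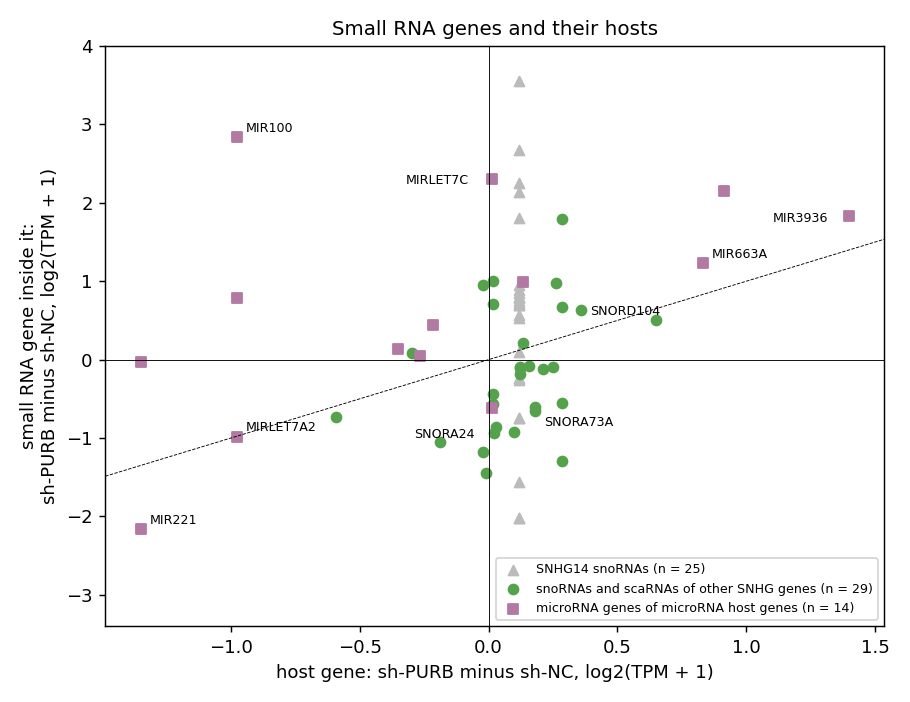
Difference (sh-PURB minus sh-NC, log2(TPM + 1)) of each tested small RNA gene (vertical) against that of its tested host (horizontal): 25 in SNHG14 (grey triangles), 29 in other SNHG genes (green circles) and 14 microRNA genes (purple squares); the dashed line marks equal differences. MIR663A, MIR3936 and MIRLET7A2 lie on their host's side, while MIR100 and SNORA73A lie on the other side. MIR100 passed the filter through sh-PURB alone, so its side was fixed in advance.

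Related genes were drawn from lists. All 4 of the other snoRNA hosts separated by group without a call, as 47.9% of all tested genes separated in either direction. DANCR stood at 60.0 and 52.4 TPM in the controls against 115 and 89.7 in sh-PURB, a ratio of 1.82 (limma unadjusted p = 0.00296, adjusted p = 0.102). ZFAS1 and GAS5, both TOP-type hosts of box C/D snoRNAs, had ratios of 1.24 and 1.24, and EPB41L4A-AS1 had 0.863. Of the 3 other microRNA hosts, H19 stood at 4.0 and 7.92 TPM in the controls against 1.09 and 2.09 in sh-PURB, a ratio of 0.267 (limma adjusted p = 0.181). DLEU2 had a ratio of 0.756, lower in both sh-PURB libraries, and FTX overlapped.

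The proteins that bind, build or process these RNAs gave no call by limma either. All 8 snoRNP proteins had a difference above 0 (median 0.28, against -0.06 for all tested genes), and 1 of them reached an unadjusted p under 0.05. That was NHP2, an H/ACA core protein, at 35.0 and 32.9 TPM in the controls against 48.4 and 40.4 in sh-PURB (ratio 1.31), and SNU13, the C/D protein that binds the kink-turn, had a ratio of 1.30. For the 10 snoRNP assembly factors the median was 0.17, with TAF9 at a ratio of 1.44 (limma unadjusted p = 0.0190) and PIH1D1 at 0.759 (limma unadjusted p = 0.0236). The 12 microRNA processing genes divided evenly, with 6 above and 6 below 0 and a median of 0.01. TARBP2, a partner of DICER1, had a ratio of 1.29 (limma unadjusted p = 0.0403) and DICER1 itself 1.22. The 10 genes of nonsense-mediated decay had a median of 0.03, and 0 reached an unadjusted limma p under 0.05. UPF1, its central helicase, stood at 5.88 and 6.39 TPM in the controls against 4.34 and 5.53 in sh-PURB, a ratio of 0.804 (limma adjusted p = 0.518).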

How the data were processed

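Total RNA was depleted of ribosomal RNA and sequenced from 2 sh-NC and 2 sh-PURB libraries of U2OS cells, grouped by title. The authors deposited TPM for each gene symbol. Per the submitters' processing notes, the tools included kallisto 0.44.0, bcl2fastq 2.19, DESeq2 and sleuth. The notes also list GRCh38 and the mouse build GRCm38, and assign none of these a role. The row without a name, at 0.921% to 1.66% of a library, was left out.

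Genes reaching 1 TPM in 2 or more libraries, 14269 in all, were taken as log2(TPM + 1), which understates differences of low genes. They were compared in limma 3.58.1 (R 4.3.3) with an intensity trend. Adjustment was by Benjamini-Hochberg over those genes, with a threshold of 0.05. Ratios are of mean TPM. The step was tested on simulated data. Positions and hosted genes came from GENCODE v29 on GRCh38 (39440 of 39519 symbols matched). Shared sequence was counted as 31-base stretches of its transcripts.

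The genes and lists were chosen with earlier results of these data known. Named in each class were the 6 highest by mean TPM and the 6 smallest by p, then the 6 small RNA genes and up to 3 genes of each list with the smallest p. Pseudocounts, filters, rescalings, a replicate block, no trend and leaving out each library were tried. Figures used Python 3.11.15 and matplotlib 3.10.9.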

Additional observations from a re-analysis of the deposited data

How the results depend on the processing

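The count of genes called over all tested genes, 41, depended on the settings. It was 0 with a pseudocount of 0.1, 0 with no filter, 0 without the intensity trend and 0 to 0 with each library left out, 121 with a filter at TPM 5, 84 after median-ratio rescaling, and 407 among protein-coding genes and long noncoding RNAs only. Small RNA genes called inside the members, 2 as reported, were 0 with a pseudocount of 0.1, no filter or no trend, 0 to 0 with each library left out, and 4 after median-ratio rescaling. With the replicate block, 118 genes were called in all, 4 small RNA genes and 1 microRNA host (MIR663AHG, limma adjusted p = 0.0419). Deviations of the libraries numbered alike correlated at 0.19 over genes, and no label ties the numbers to a shared culture.

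Among protein-coding genes and long noncoding RNAs only, 5 microRNA hosts were called, and PURB was too (difference -0.91, limma adjusted p = 0.0343). The median over microRNA hosts was -0.54 with a filter at TPM 5, where only MIR663AHG, MIR100HG, MIR222HG and MIR4458HG were tested. The median over SNHG genes was 0.22 after median-ratio rescaling, which moved the median of all genes from -0.06 to 0.03, and 0.16 among protein-coding genes and long noncoding RNAs only. With each library left out, the median over SNHG genes ranged from 0.0404 to 0.17, SNHG29 from -0.13 to 0.24, SNHG6 from -0.0115 to 0.0275 and SNHG8 from -0.16 to 0.20. The cause was not tested. TPM keeps no depth, so what depth limits is unknown.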
